A study of Homo sapiens with 6 samples.

Results

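A stretch of chromosome 7q34 was examined in K562 cells, an erythroleukemia line, for 7 neighboring genes: PRSS1, PRSS2, EPHB6, TRPV6, TRPV5, KEL and CASP2. They span positions 142749468 to 143307696 (GRCh38) and make up 7 of the 62252 annotated genes in the files. They were picked by name, with other genes of the stretch left aside, because TRPV6 and PRSS2 were both higher after depletion of PCBP1. All 50 transcripts that GENCODE assigns to them, of 251612 in all, were read in each library. The shCtrl group carried a pLKO.1 lentiviral short hairpin RNA (shRNA) against luciferase, which these cells lack, and the shPCBP1 group carried 1 against PCBP1, which encodes a poly(C) RNA-binding protein and cytosolic iron chaperone. Both groups were selected in puromycin at 3 µg/mL for 4 days, and each gave 3 poly-A RNA libraries labeled Rep1 to Rep3. The cells were 1 line and the hairpin against PCBP1 was 1 sequence, and nothing in the labels says whether the libraries of a group came from separate cultures, so the spread between them may be technical.

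The 7 genes include a pair of trypsinogens and a pair of related channels. PRSS1 and PRSS2 encode cationic and anionic trypsinogen, the inactive forms of trypsin that pancreatic acinar cells secrete for digestion. TRPV6 and TRPV5 encode calcium-selective channels that let calcium into the epithelium of the gut and the kidney, respectively. EPHB6 encodes an Eph receptor whose kinase domain is inactive. KEL encodes the Kell blood group glycoprotein, a zinc endopeptidase of the M13 family that is bound to XK on red cells. CASP2 encodes caspase-2, a protease activated by the PIDDosome after DNA damage or failed cell division. Of the cell types named here only the erythroid one, given for KEL, is that of K562, and none is named for EPHB6 or CASP2.

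The trypsinogen genes are near copies, so their sequences are shown first because a read can be credited to the wrong gene. The RefSeq promoter windows (GRCh38, plus strand, 250 bases before to 50 after the start) lie at chr7:142749222-142749521 for PRSS1 and chr7:142770720-142771019 for PRSS2. In an alignment 269 positions were the same, 25 differed and 12 were gaps, an identity of 87.9%, and capitals mark letters that differ or stand opposite a gap.
PRSS1 promoter: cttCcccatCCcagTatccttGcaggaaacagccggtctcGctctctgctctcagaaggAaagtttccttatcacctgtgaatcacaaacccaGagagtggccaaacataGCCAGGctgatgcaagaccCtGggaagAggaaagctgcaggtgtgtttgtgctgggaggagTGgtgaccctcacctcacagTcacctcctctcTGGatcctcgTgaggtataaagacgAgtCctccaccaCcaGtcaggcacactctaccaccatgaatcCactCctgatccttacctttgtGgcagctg
PRSS2 promoter: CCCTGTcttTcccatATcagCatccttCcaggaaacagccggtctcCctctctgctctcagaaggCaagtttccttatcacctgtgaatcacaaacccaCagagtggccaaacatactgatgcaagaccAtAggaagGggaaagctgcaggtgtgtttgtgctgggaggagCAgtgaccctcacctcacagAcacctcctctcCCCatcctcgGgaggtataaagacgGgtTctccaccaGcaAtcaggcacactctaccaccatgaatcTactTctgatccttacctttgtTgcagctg
Both windows held TATAAA on the gene strand 32 bases before the start, which 7.33% of 35116 RefSeq promoters hold anywhere in the window, and CAGCTG 44 bases after it, which 17.9% hold on either strand. These letters did not separate the 2 genes.

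Exon 3, which encodes protein, is where the transcripts PRSS1-201 and PRSS2-201 differ most. It lies on the plus strand at chr7:142751774-142752027 in PRSS1 and chr7:142773266-142773519 in PRSS2 (GRCh38). Capitals mark the 28 of 254 bases that differ.
PRSS1 exon 3: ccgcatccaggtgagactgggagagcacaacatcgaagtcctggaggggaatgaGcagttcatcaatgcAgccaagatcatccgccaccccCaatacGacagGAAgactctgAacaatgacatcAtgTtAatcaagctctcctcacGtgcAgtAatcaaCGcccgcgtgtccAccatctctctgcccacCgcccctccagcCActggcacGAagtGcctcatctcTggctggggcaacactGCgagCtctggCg
PRSS2 exon 3: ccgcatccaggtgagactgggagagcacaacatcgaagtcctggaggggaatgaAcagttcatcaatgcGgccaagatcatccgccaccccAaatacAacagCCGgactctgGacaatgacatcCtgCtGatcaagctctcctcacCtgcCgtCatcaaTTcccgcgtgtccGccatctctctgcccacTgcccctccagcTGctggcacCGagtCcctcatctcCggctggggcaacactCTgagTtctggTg
Over all 809 bases the pair shared 750, or 92.7%. Of the 779 stretches of 31 bases in PRSS2-201, 591 (75.9%) occurred in no other annotated gene, and the gene that shared the largest number, 90, was the pseudogene PRSS3P1. For PRSS1-201, 642 of 779 (82.4%) occurred in no other gene. Both genes can therefore be told apart over most of their length, while reads in the shared stretches were divided by the authors' software.

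A second pair of sequences concerns TRPV6. EPHB6 runs on the plus strand and ends at position 142871094, TRPV6 runs on the minus strand and ends at 142871208, and the genes meet tail to tail across 113 bases (chr7:142871095-142871207, GRCh38, shown on the plus strand).
EPHB6 to TRPV6 gap: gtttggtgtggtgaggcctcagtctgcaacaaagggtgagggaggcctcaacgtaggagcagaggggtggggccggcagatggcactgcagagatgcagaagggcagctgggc
The gap held neither AATAAA nor its reverse complement. The search covered only these 113 bases and not the last exons of either gene, so it cannot show where their transcripts end. Most TRPV6 reads were assigned to TRPV6-205, an annotated transcript that keeps intron 12 of the gene (chr7:142873717-142874075, minus strand, 359 bases). The last 100 bases of that intron, up to the 3′ splice site (chr7:142873717-142873816), are shown on the minus strand with runs of 3 or more C in capitals, because PCBP1 binds such RNA.
TRPV6 intron 12 end: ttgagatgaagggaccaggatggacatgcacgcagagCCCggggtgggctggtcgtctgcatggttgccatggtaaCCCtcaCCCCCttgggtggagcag
The whole intron was 18.9% C and held 4 such runs. The other introns of TRPV6-201 ranged from 18.7% to 37.2% C, so intron 12 as a whole was near the low end. Its last 100 bases were not compared with the ends of the other introns.

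Libraries held between 67066747 and 140522444 estimated counts, with all 3 shPCBP1 libraries at 85121124 or fewer and 2 of 3 shCtrl libraries at 126567836 or more. Libraries of a group differed by more than sampling noise (chi-square per degree of freedom 6.48 to 16.4). The targeted gene, PCBP1, gave 37799 to 40566 normalized counts across shCtrl and 6625 to 7277 across shPCBP1. All 16 K562 erythroid markers were above 1 TPM, a relative abundance that corrects for transcript length, in some library, and their summed level was 34790 to 42465 TPM in shCtrl and 39973 to 42064 TPM in shPCBP1. All 12 markers of pancreatic acinar cells stayed under 1 TPM, with sums of 0.371 to 0.741 TPM in shCtrl and 0.377 to 0.674 TPM in shPCBP1. Of 8 markers of calcium-transporting epithelium 5 stayed under 1 TPM. EPCAM was at 37.4 TPM in shCtrl and 32.5 TPM in shPCBP1 (adjusted p 0.0349), VIL1 at 1.27 and 0.763 TPM (adjusted p 0.0222) and CALB1 at 26.2 and 27.3 TPM (adjusted p 0.947), and the list summed to 63.5 to 67.1 TPM in shCtrl and 50.7 to 67.01 TPM in shPCBP1.

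On the TPM scale the 7 genes spanned a wide range of levels. In shCtrl the order was KEL at 56.9 ± 4.60 TPM (SD, n = 3), CASP2 at 28.2 ± 0.274, EPHB6 at 18.8 ± 0.317, PRSS2 at 5.34 ± 0.446 and TRPV6 at 0.551 ± 0.0859. PRSS1 at 0.117 ± 0.138 TPM and TRPV5 at 0.0172 ± 0.0118 TPM came last and overlapped each other. The order was the same in shPCBP1, where the values were 52.8 ± 2.94, 37.9 ± 1.74, 33.5 ± 1.79, 16.1 ± 0.729, 1.73 ± 0.0525, 0.187 ± 0.236 and 0.0463 ± 0.0414 TPM. CASP2 and EPHB6 moved closest together there, with a lowest CASP2 library of 36.1 TPM and a highest EPHB6 library of 35.0 TPM. In bulk RNA, more cells with a transcript and more of it per cell cannot be told apart.

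**Figure D1:**
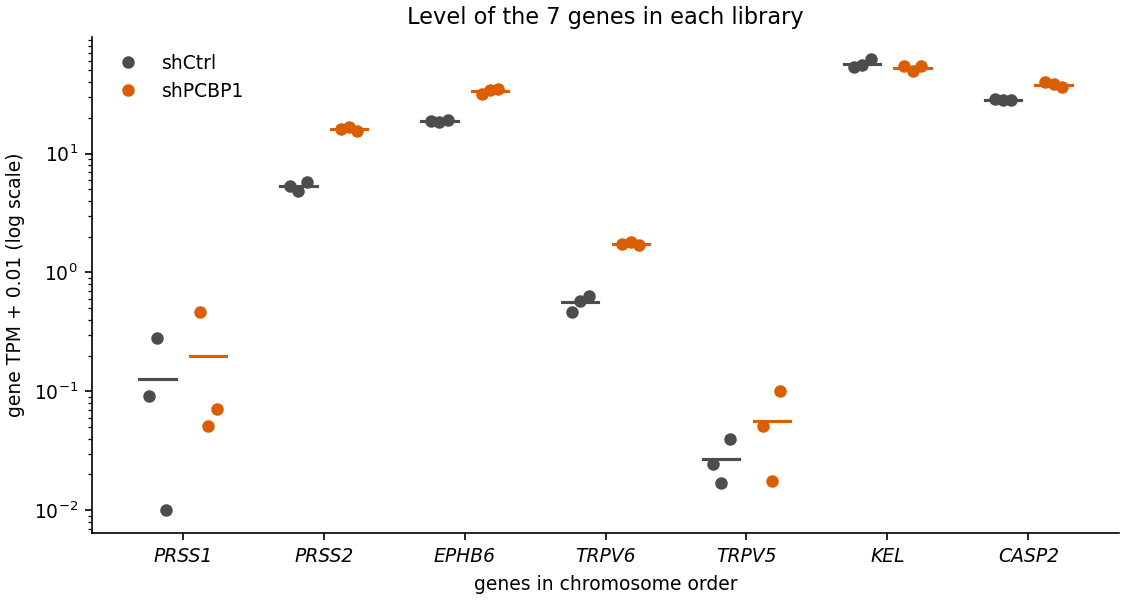
Level of each of the 7 genes in every library, as TPM plus 0.01 on a log axis (points), with the mean of each group of 3 libraries as a line. The shPCBP1 points of PRSS2, EPHB6, TRPV6 and CASP2 lie above all shCtrl points, those of KEL overlap, and PRSS1 and TRPV5 stay under 0.5 TPM.

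Of the 7 genes, TRPV6 and PRSS2 passed the study's thresholds, both higher in shPCBP1: DESeq2 adjusted p below 0.05, log2 fold change beyond 1 in size and an average above 10 normalized counts. Of the 17095 genes tested, 0.386% were called higher by that rule and 0.989% lower. Since the genes were picked on this contrast, their values are a description and carry no p. EPHB6 and CASP2 were also higher in every shPCBP1 library, which held for 23.7% of the genes tested. A ranking took coding genes called higher that averaged 100 or more normalized counts and had no overlap between groups. Its largest log2 fold changes were 1.84 for SYTL5, 1.71 for TRPV6, 1.63 for PRSS2 and 1.58 for HECW2.

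PRSS2 (ENSG00000275896.7, chr7:142760398-142774564, plus strand) gave 243.3, 219.5 and 263.3 normalized counts in the shCtrl libraries and 765.7, 785.8 and 704.4 in the shPCBP1 libraries. The groups lay far apart relative to their spread, at 242.0 ± 21.9 and 752.0 ± 42.4 (SD, n = 3), and the log2 fold change was 1.63 (SE 0.136). The authors' software assigned nearly all of it to PRSS2-201, the 809-base coding transcript with 5 exons. That transcript stood at 5.09, 4.42 and 5.73 TPM in shCtrl and 15.7, 16.8 and 15.2 TPM in shPCBP1. It made up 94.9% ± 4.36 of the gene's TPM in shCtrl and 98.9% ± 1.39 in shPCBP1. These shares are estimates that divide reads among overlapping models. Of the 779 stretches of 31 bases in PRSS2-201, 0 occurred in no other transcript.

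PRSS1 (ENSG00000204983.15, chr7:142749468-142753072, plus strand) was close to absent. It had 11, 8 and 0 estimated counts in shCtrl and 11, 3 and 2 in shPCBP1, with none on PRSS1-201, its main coding transcript. The groups overlapped, DESeq2 gave it no adjusted p, and its log2 fold change of 0.19 had an SE of 1.35. The copy with 92.7% of the same transcript letters thus had a few reads per library where PRSS2 had 202 to 681.

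Few other serine proteases were higher. Of 64 trypsins and other serine proteases, 17 had an adjusted p, of which 1 was higher and 4 were lower at an adjusted p under 0.05, against 17.7% and 13.5% of all genes tested. Their median log2 fold change was -0.16 and that of all genes tested was 0.00. PRSS21 (testisin), the highest of the list, was at 92.3 TPM in shCtrl and 90.5 TPM in shPCBP1 (log2 fold change -0.01, adjusted p 0.902), and CFD (complement factor D) was at 37.3 and 32.6 TPM (-0.09, adjusted p 0.334). KLK1, tissue kallikrein, fell from 17.9 to 12.9 TPM (log2 fold change -0.42, adjusted p 0.000857). PRSS8 (prostasin) was the list's 1 gene past all thresholds, with a log2 fold change of -1.44 (SE 0.480, adjusted p 0.0112) at only 0.443 and 0.160 TPM, and it received no adjusted p when any 1 library was left out.

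A list of inhibitors and receptors of trypsin and related serine proteases was read next. Of 19 inhibitors and receptors 8 had an adjusted p, and 5 of them were lower, against 13.5% of all genes tested, with a list median of -0.17. SERPINB1, an intracellular inhibitor of neutrophil serine proteases, fell from 42.5 to 30.2 TPM (log2 fold change -0.60, adjusted p 4.7e-31). SERPINB6 fell by 0.11 (adjusted p 0.0116) and F2R, the thrombin receptor PAR1, fell by 0.16 (adjusted p 0.0161), but each of these calls was lost in some fits with 1 library left out. For SERPINB6 those were the fits without shCtrl replicate 1 and without shPCBP1 replicate 2, and for F2R those without shCtrl replicate 2 and without shPCBP1 replicate 1.

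TRPV6 (ENSG00000165125.22, chr7:142871208-142885745, minus strand) gave 76.9, 102.2 and 126.7 normalized counts in the shCtrl libraries and 333.9, 352.6 and 316.9 in the shPCBP1 libraries. The lowest shPCBP1 library was above the highest shCtrl library by more than the SD of either group, and the means were 101.9 ± 24.9 and 334.5 ± 17.8 (log2 fold change 1.71, SE 0.220). The estimated counts behind it were 94.0 to 193.0 in shCtrl and 228.6 to 297.0 in shPCBP1, so its error was larger than that of the other expressed genes.

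Few TRPV6 reads were assigned to the channel's coding transcript. TRPV6-201, which has 15 exons and encodes the channel, held 15.6, 1.44 and 0 estimated counts in shCtrl and 3.59, 0 and 0 in shPCBP1. TRPV6-205, annotated as a retained-intron transcript of 2406 bases, held 87.4, 92.6 and 175.6 in shCtrl and 275.8, 269.8 and 225.3 in shPCBP1. Salmon gave it 0.344, 0.557 and 0.616 TPM in shCtrl and 1.61, 1.71 and 1.68 TPM in shPCBP1, without overlap. Transcripts of the retained-intron class made up 96.0% of TRPV6 TPM in shCtrl and 99.7% in shPCBP1. TRPV6-205 covers the 3′ part of the gene in 9 exons and begins 9205 bases downstream of the start of TRPV6-201. The transcript estimates divide reads among overlapping models, and 96.5% of the 31-base stretches of TRPV6-205 occurred in no other gene while 5.22% occurred in no other transcript. Coding transcripts alone gave TRPV6 a log2 fold change of -1.53, on the few counts just listed.

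**Figure D2:**
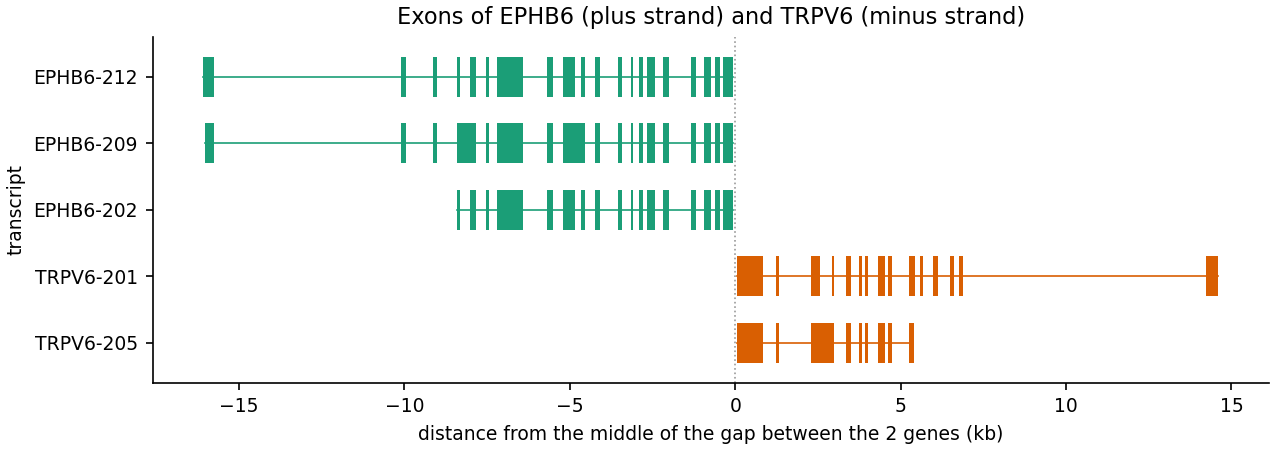
Exons (boxes) and introns (lines) of 3 EPHB6 and 2 TRPV6 transcripts drawn to scale, with distance in kb from the middle of the 113-base gap between the genes. The box of TRPV6-205 that has no match in TRPV6-201 spans 2 exons of it and the intron between them, and the transcript lacks the upstream exons of TRPV6-201.

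TRPV5 (ENSG00000127412.7, chr7:142908101-142933746, minus strand), the renal paralog, lies 22355 bases from TRPV6 and was close to absent. It had 3, 1 and 7 estimated counts in shCtrl and 6, 1 and 11 in shPCBP1, overlapping groups, no adjusted p and a log2 fold change of 1.51 with an SE of 1.33.

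Lists of other calcium genes are read against the 17.7% of all genes tested that were higher and the 13.5% that were lower at an adjusted p under 0.05. Of 25 TRP channels 16 stayed under 1 TPM and 13 had an adjusted p, 1 higher and 2 lower, with a median log2 fold change of 0.10. TRPM4, a calcium-activated cation channel, fell from 3949, 4050 and 3742 to 1764, 2065 and 2232 normalized counts (log2 fold change -0.95, SE 0.0784, adjusted p 1.06e-31) and TRPV2 fell from 56.0 to 48.2 TPM (-0.21, adjusted p 9e-05). MCOLN1, a lysosomal channel, was at 15.5 and 16.8 TPM (adjusted p 0.0712). Of 31 partners of TRPV5 and TRPV6 in calcium transport 12 stayed under 1 TPM and 20 had an adjusted p, 4 higher and 5 lower, median 0.08. Among the most abundant of these, CALM3 (calmodulin) rose by 0.17 (adjusted p 2.18e-06) and ANXA2 (annexin A2, which helps carry TRPV5 and TRPV6 to the membrane) rose by 0.19 (adjusted p 0.000165), while CALM2 was at 387 and 383 TPM (adjusted p 0.535). All 12 genes of store-operated calcium entry and reuptake had an adjusted p, 2 higher and 5 lower, median -0.03. ATP2A3, a pump that returns calcium to the endoplasmic reticulum, fell from 54.1 to 31.5 TPM (log2 fold change -0.64, adjusted p 9e-08). ATP2A2, another such pump, rose by 0.13 (adjusted p 0.00661) and SARAF fell by 0.12 (adjusted p 0.0409), both weakly supported. Without shPCBP1 replicate 1 the adjusted p was 0.0636 for ATP2A2 and 0.214 for SARAF, and SARAF also lost the call without shCtrl replicate 2 or 3 or shPCBP1 replicate 2.

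EPHB6 (ENSG00000106123.12, chr7:142855061-142871094, plus strand) gave 5293, 5162 and 5751 normalized counts in the shCtrl libraries and 9722, 9742 and 10189 in the shPCBP1 libraries. Every shPCBP1 library was well above every shCtrl library, with a log2 fold change of 0.87 (SE 0.0502). This was a larger gain in counts than that of TRPV6, at 5402 ± 309 to 9884 ± 264. For each 100 EPHB6 counts there were 1.45, 1.98 and 2.20 TRPV6 counts in shCtrl and 3.43, 3.62 and 3.11 in shPCBP1. This ratio restates the log2 fold changes of 1.71 for TRPV6 and 0.87 for its tail-to-tail neighbor. TRPV6 was picked for its rise, so the ratio is only a description. Whether the libraries kept strand is not given in the sources used here, so reads that run past the end of 1 gene cannot be told apart from reads of the other.

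Most EPHB6 TPM was assigned to transcripts of 2 annotated starts 7680 bases apart. These values are estimates that divide reads among overlapping models. Of the 3969 stretches of 31 bases in EPHB6-212, 0 occurred in no other transcript. Transcripts of the upstream start were at 10.2, 13.4 and 13.6 TPM in shCtrl and 22.6, 24.9 and 24.4 TPM in shPCBP1, without overlap. Those of the downstream start were at 6.93, 3.32 and 4.95 TPM and 6.77, 7.31 and 8.02 TPM, with overlap. The upstream share of EPHB6 TPM was 66.0% ± 10.4 in shCtrl and 71.6% ± 1.63 in shPCBP1, overlapping because shCtrl replicates 2 and 3 were already at 72.5% and 71.4%. EPHB6-212, the most abundant upstream transcript, stood at 7.75, 9.91 and 10.5 TPM and then 17.0, 18.1 and 18.1 TPM. EPHB6-209, which keeps introns, was at 1.35, 1.17 and 1.56 TPM in shCtrl and 2.02, 2.38 and 2.69 TPM in shPCBP1, also without overlap. Its share of EPHB6 TPM was 7.23% ± 0.905 in shCtrl and 7.01% ± 0.642 in shPCBP1, with overlap. The share of all retained-intron transcripts of EPHB6 was 11.8% ± 2.56 and 9.06% ± 0.835.

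Other Eph genes were mostly low. Of 21 Eph receptors and ephrins 15 stayed under 1 TPM and 10 had an adjusted p, with a median log2 fold change of -0.31. EPHB4, the most abundant at 54.0 and 57.9 TPM, had a log2 fold change of 0.16 (adjusted p 0.0276), a call that was lost in 4 of 6 fits with 1 library left out, those without replicate 1 or 2 of either group. EFNA3 was at 6.36 and 5.77 TPM (adjusted p 0.860) and EFNA4 at 4.15 and 3.12 TPM (adjusted p 0.0988).

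**Figure D3:**
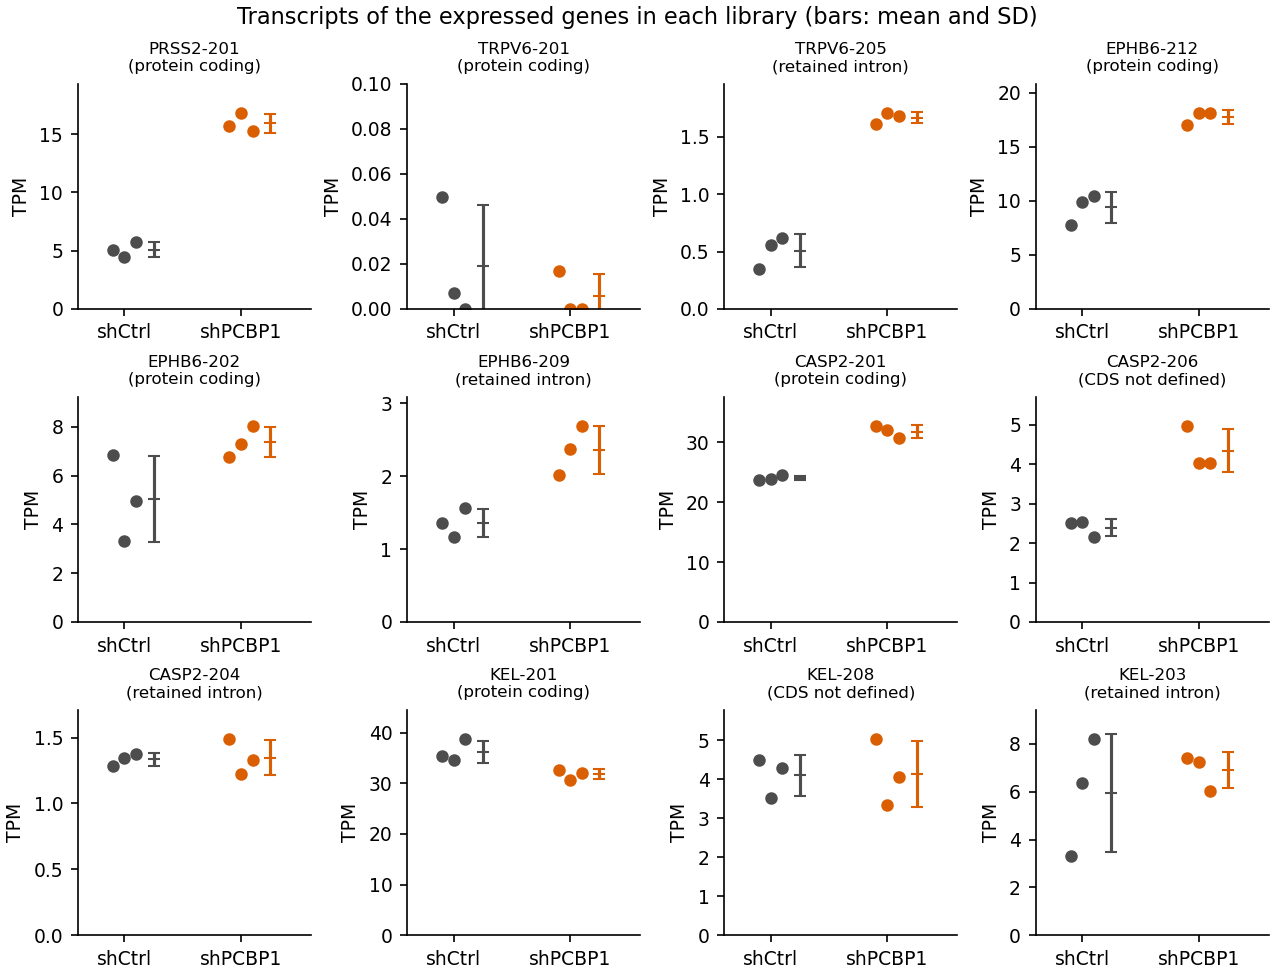
TPM of 12 transcripts in each library (points), with mean and SD of 3 libraries beside them; each panel has its own axis starting at 0, where the error bar of TRPV6-201 is cut. PRSS2-201, TRPV6-205, EPHB6-212, EPHB6-209, CASP2-201 and CASP2-206 do not overlap between groups and are higher in shPCBP1, TRPV6-201 stays under 0.1 TPM, and KEL-201 is slightly lower. Of all genes tested, 44.2% had groups without overlap in either direction, and the share over all transcripts was not computed. Transcript TPM are estimates that divide reads among overlapping models.

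KEL (ENSG00000197993.9, chr7:142941114-142962363, minus strand) gave 7674, 7236 and 8389 normalized counts in the shCtrl libraries and 7517, 6819 and 7007 in the shPCBP1 libraries. The groups overlapped, with a log2 fold change of -0.13 (SE 0.0580). KEL-201, the full coding transcript of 19 exons, was at 35.4, 34.5 and 38.7 TPM in shCtrl and 32.6, 30.7 and 32.0 TPM in shPCBP1, and here the groups did not overlap. At gene level 20.5% of all genes tested were lower in every shPCBP1 library. Retained-intron transcripts made up 26.3% and 28.7% of KEL TPM, and single ones varied widely between libraries of a group, as KEL-203 did at 3.30, 6.35 and 8.19 TPM in shCtrl. The KEL promoter window held AGATAA, a form of the site bound by GATA factors, 62 bases before the start, as 10.3% of RefSeq promoters did on either strand.

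The changes of other blood group genes were centered near 0. Of 26 genes for red cell blood group carriers 23 had an adjusted p, 2 higher and 5 lower, with a median log2 fold change of -0.04. Of all genes tested, 17.7% were higher and 13.5% lower at an adjusted p under 0.05. BSG (basigin) was at 410 and 417 TPM (adjusted p 0.261) and RHAG at 330 and 349 TPM (adjusted p 0.166). BCAM, the Lutheran glycoprotein, passed all thresholds with a log2 fold change of -1.15 (adjusted p 0.0275) at 0.973 and 0.561 TPM, and lost the call in 5 of 6 fits with 1 library left out, the exception being that without shPCBP1 replicate 3. XK, which is linked to KEL by a disulfide bond, was at 11.2 and 11.3 TPM (adjusted p 0.990). Of the other M13 peptidases ECE1 was at 21.2 and 22.8 TPM (log2 fold change 0.11, adjusted p 0.0406), a call kept with 1 library left out only without shCtrl replicate 2, and MME (neprilysin) was at 0.528 and 0.346 TPM (adjusted p 0.0545).

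CASP2 (ENSG00000106144.20, chr7:143288215-143307696, plus strand) gave 8761, 8522 and 9034 normalized counts in the shCtrl libraries and 12435, 11661 and 11151 in the shPCBP1 libraries. The groups did not overlap, and the log2 fold change was 0.42 (SE 0.0476). CASP2-201, the coding transcript, stood at 23.8, 23.8 and 24.5 TPM in shCtrl and 32.7, 32.0 and 30.7 TPM in shPCBP1. CASP2-206, which starts 1237 bases downstream and has no defined coding sequence, was at 2.51, 2.54 and 2.15 TPM and then 4.97, 4.05 and 4.03 TPM. Its share of CASP2 TPM was 8.51% ± 0.766 in shCtrl and 11.4% ± 1.00 in shPCBP1, without overlap. At gene level 44.2% of all genes tested had no overlap in either direction, and the figure over all transcripts was not computed. Such shares are divided estimates, and 1 of the 4059 stretches of 31 bases in CASP2-201 occurred in no other transcript. CASP2-204, which keeps introns, was at 1.34 ± 0.0495 and 1.35 ± 0.132 TPM with overlapping groups.

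Genes that act with caspase-2 were examined beside it. Of 16 activators and substrates 15 were found and had an adjusted p, 6 higher and 2 lower, against 17.7% and 13.5% of all genes tested, with a median log2 fold change of 0.10. PLK1 (a mitotic kinase) was at 127 and 144 TPM (log2 fold change 0.22, adjusted p 8.61e-06) and BAX, a pore-forming protein of mitochondria, was at 112 and 130 TPM (0.27, adjusted p 2.83e-07). BCL2L1, which restrains BAX, was at 86.4 and 87.3 TPM (adjusted p 0.574). Of 11 caspases 7 had an adjusted p, 1 higher and 1 lower. CASP9, the initiator of the mitochondrial pathway, fell from 25.9 to 21.0 TPM (log2 fold change -0.38, adjusted p 9.55e-08), while CASP6, an executioner caspase, had a log2 fold change of -0.04 (adjusted p 0.688).

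The genes around the 7 were then read to see whether the stretch as a whole was higher. The gaps between successive members ranged from 113 to 325851 bases. Of 40 other genes inside the stretch 22 were at 0 TPM in every library and 4 had an adjusted p. At an adjusted p under 0.05, 2 of these were higher, against 17.7% of all genes tested. They were TRBC1 and TRBC2, the constant segments of the T cell receptor beta locus, which lie between PRSS2 and EPHB6. TRBC1 gave 320.9, 272.8 and 392.6 normalized counts in the shCtrl libraries and 511.6, 587.6 and 600.6 in the shPCBP1 libraries (log2 fold change 0.78, SE 0.159, adjusted p 1.14e-05). TRBC2 had 277.0, 316.2 and 304.0 in shCtrl and 358.7, 421.4 and 513.4 in shPCBP1 (0.53, SE 0.169, adjusted p 0.00827), and its adjusted p was 0.0586 without shCtrl replicate 1 and 0.0893 without shPCBP1 replicate 3. Of 8 T cell markers 7 stayed under 1 TPM and CD3D was at 66.1 TPM in shCtrl and 54.9 TPM in shPCBP1 (adjusted p 0.191). The list, nearly all of it CD3D, summed to 62.2 to 74.4 TPM in shCtrl and 47.0 to 63.6 TPM in shPCBP1, with overlap. Its median log2 fold change over the 2 genes with an adjusted p was 0.16.

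The remaining genes of the interval varied. LLCFC1, between TRPV5 and KEL, had a log2 fold change of 0.43 (SE 0.309, adjusted p 0.307), and GSTK1, a glutathione transferase between KEL and CASP2, had -0.01 (SE 0.0437, adjusted p 0.862) at 11187, 10904 and 11475 normalized counts in shCtrl libraries and 11468, 11224 and 10562 in shPCBP1 libraries. ENSG00000289938, between TRBC2 and EPHB6, had 9.53, 6.52 and 28.2 normalized counts in shCtrl libraries and 45.0, 40.4 and 36.0 in shPCBP1 libraries, without overlap and without an adjusted p. TMEM139-AS1, TMEM139, RN7SL535P and RN7SL481P, between KEL and the end of CASP2, had at most 34.6 normalized counts in any library, overlapping groups and no adjusted p.

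The window was then widened by 1 Mb on either side. Of its 191 non-member genes, those inside the stretch included, 107 were at 0 TPM in all libraries and 22 had an adjusted p. Of these, 5 were higher and 2 lower at an adjusted p under 0.05, against 17.7% and 13.5% of all genes tested, with a median log2 fold change of 0.12. By DESeq2 0 of them passed all thresholds, against 1.37% of all genes tested. At an unadjusted p under 0.05, 6 were higher and 2 lower, against 3751 and 2998 of the 17095 genes tested. Among the neighbors edgeR called 1, the pseudogene ENSG00000253882, which had counts in shPCBP1 replicate 1 and in no other library. In the flanks the long noncoding RNA gene ENSG00000288882, before PRSS1, had a log2 fold change of 0.89 (SE 0.147, adjusted p 3e-08), and ZYX (zyxin, a focal adhesion protein) had 0.22 (SE 0.0350, adjusted p 5.54e-09). The pseudogene TCAF1P1 had 0.41 (adjusted p 0.00833), FAM131B-AS2 -0.43 (adjusted p 0.00912) and ENSG00000291149 -0.44 (adjusted p 0.00317). The call was lost for TCAF1P1 without replicate 3 of either group, for FAM131B-AS2 without shCtrl replicate 1 or 2, and for ENSG00000291149 without shCtrl replicate 1 or shPCBP1 replicate 1 or 2.

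**Figure D4:**
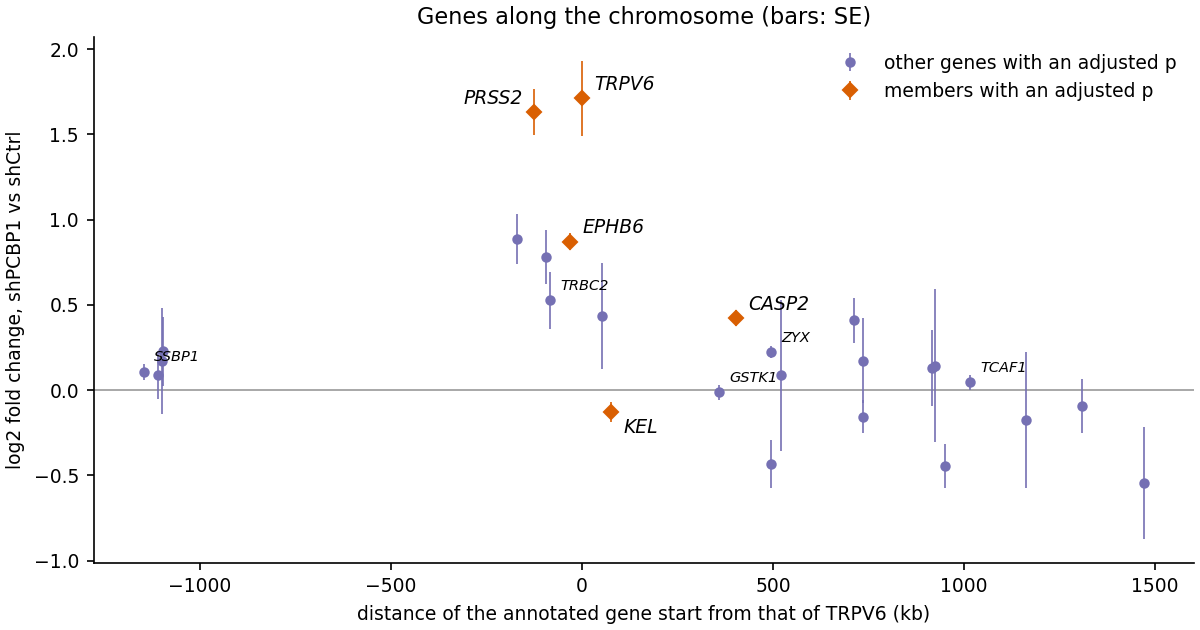
Log2 fold change (points, with SE as bars) of each gene with an adjusted p against the distance of its start from that of TRPV6 in kb, with the members as diamonds. PRSS2 and TRPV6 stand highest, TRBC2 and EPHB6 before TRPV6 also lie above 0, and on the other side KEL and GSTK1 lie near or below 0 while CASP2 and ZYX lie above it.

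The patterns of TRPV6 and PRSS2 over the 6 libraries were compared with those of 14180 genes by Pearson r on log2 normalized counts, a description that the difference between the groups carries. The 5 genes most like TRPV6 were NORAD, TAOK2, SRPRA, NCEH1 and PHLDA1 (r 0.996 to 1.00), on chromosomes 20, 16, 11, 3 and 12, with log2 fold changes of 0.21, 0.21, 0.09, 0.60 and 0.72. Those most like PRSS2 were TRIM14, SSX2IP, TPTEP1, POLR2D and DDI2 (r 0.999 each), with log2 fold changes of 0.29 to 0.43. EPHB6 ranked 116th for TRPV6 (r 0.979) and 49th for PRSS2 (r 0.993), and PRSS2 ranked 163rd for TRPV6 (r 0.976). No gene of the chromosome 7 stretch was among either top 5.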

How the data were processed

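Poly-A RNA of K562 cells was measured in 6 libraries, 3 shCtrl and 3 shPCBP1, grouped by their labels. The authors quantified paired reads with Salmon 1.10.2 (submitters' processing notes). The deposited values were estimated counts, fractional and without normalization, and TPM, which the authors' software scaled by transcript length and library. The index annotation and the strand setting are not given in the sources used here. Of 252045 transcripts 251612 were matched to GENCODE release 44, and the other 433 held 0.136% to 0.147% of counts and were left out. Total counts were 67066747 to 140522444, so precision was lowest for genes with few reads, above all TRPV6, PRSS1 and TRPV5.

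Counts were summed per gene, rounded and fitted with DESeq2 1.42.0 in R 4.3.3 (two-sided Wald test with group as its term, size factors by median of ratios, summed count of at least 10, Benjamini-Hochberg adjustment over all genes tested, unshrunken log2 fold changes), which was checked on simulated counts. Adjusted p-values that DESeq2 left missing stayed missing. Medians of lists are over genes with an adjusted p. Every adjusted p is from this test. Groups without overlap were counted over all genes tested (44.2% in either direction), but not over all transcripts. Alternatives were edgeR 4.0.16, TMM factors, transcript length offsets, other count filters, coding transcripts only, a replicate block, TPM scales, shrinkage and leaving out each library. Python 3.11.15 was used for summaries. RefSeq promoters (GRCh38) and the GRCh38 genome gave the sequences.

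Named genes were the 7 members, other genes of the stretch that averaged 10 or more normalized counts, up to 6 flanking genes with the largest changes, genes of each list past all thresholds with its 3 highest by TPM, the 5 most like TRPV6 and PRSS2, and PCBP1. SYTL5, HECW2, EPCAM, CALB1, VIL1, CD3D and ENSG00000253882 were chosen after their values were seen. Some genes under this rule are not reported here. The members and lists were chosen with earlier results of these data known. Deviations of same-numbered libraries from their group means correlated at 0.0940, -0.0203 and -0.105 over 14181 genes, so the numbers were not taken to pair the samples.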

Additional observations from a re-analysis of the deposited data

How the results depend on the processing

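TRPV6 and PRSS2 were called in all 13 alternative gene fits run, except TRPV6 with coding transcripts only, where its log2 fold change was -1.53 on 0 to 15.6 counts per library. These fits reuse the libraries on which both genes were picked for their rise, so the calls are a description and not independent support. Leaving out each library gave 1.54 to 1.91 for TRPV6 and 1.57 to 1.70 for PRSS2. On log2(TPM + 1) the differences were 0.82 for TRPV6, 1.43 for PRSS2, 0.80 for EPHB6 and 0.0400 for TRPV5, and shrunken fold changes were 0.82 for TRPV6, 1.16 for PRSS2 and 0.0364 for TRPV5. On log2(TPM + 0.1) TRPV5 was at 0.29. A pseudocount or prior pulls low genes toward 0 by construction. The sign of PRSS1, at 0 to 11 counts, turned without shCtrl replicate 3 (-0.41) and without shPCBP1 replicate 1 (-0.80), and the values of PRSS1 and TRPV5 have no weight at this depth. PRSS1 and TRPV5 had no value with a mean count of at least 50, nor PRSS1 with coding transcripts only.

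Same-numbered libraries did not deviate together, so the replicate block is only an alternative: it called 148 genes (41 higher) in place of 235 (66 higher), with TRPV6 at 1.74 and PRSS2 at 1.63. edgeR called 322 genes (99 higher) and length offsets 331 (80 higher), and coding transcripts only gave 37 genes higher. Leaving out a library gave 140 (without shCtrl replicate 2) to 249 genes, of which 38 (without shPCBP1 replicate 1) to 81 were higher. Of the neighbors, edgeR called 1 and leaving out a library 0 to 1 (ENSG00000288882 without shCtrl replicate 3). Neighbors higher at an adjusted p under 0.05 were 1 with coding transcripts only, which tests fewer genes. Neighbors lower were 1 with length offsets, 1 with coding transcripts only and 0 to 2 with a library left out. Among the lists, the number of genes at an adjusted p under 0.05 became 5 TRP channels with length offsets, 4 store-operated entry genes with edgeR and 4 with the replicate block, 1 Eph gene with edgeR and 1 with length offsets, and 0 M13 genes with edgeR, length offsets, coding transcripts only and the replicate block. With a library left out the counts were 3 to 6 for store-operated entry, 0 to 2 for Eph genes and 0 to 1 for M13 genes. They were 3 to 4 for serine proteases and 3 to 5 for inhibitors and receptors of trypsin and related proteases. With edgeR the adjusted p was 0.0509 for BCAM and ATP2A2, 0.0542 for SARAF, 0.112 for EPHB4 and 0.133 for ECE1. The cause of these differences was not tested.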
